A study of Gallus gallus with 6 samples.

Results

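Avian beta-defensins (AvBD) and cathelicidins are the antimicrobial peptide families that chicken white blood cells make. Their genes were picked on the chicken array by symbol: every probe set annotated as AvBD followed by a number, as DEFB4A (the current symbol of AvBD2), or as a numbered cathelicidin. This gave 14 of the 13051 genes with an annotated probe set, 13 of them defensins and 1 the cathelicidin CATH1, and 20 of the 38439 probe sets that are not array controls. The cells were primary monoblasts of Brown Leghorn chickens, an early stage on the way to monocytes and macrophages. They had been transformed by v-Myb, the oncogenic transcription factor of avian myeloblastosis virus, and were put in culture 16 days after infection. One group (3 arrays) carried wild type v-Myb and the other (3 arrays) a mutant named deltaP. Both groups are thus v-Myb-transformed and no untransformed cells were compared. The series title concerns the leucine zipper region of v-Myb, but no label gives the residues that differ in deltaP.

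Beta-defensins are short cationic peptides folded around disulfide bridges, and cathelicidins are released by proteases from a longer precursor. Both bind to and disrupt microbial membranes. Birds have beta-defensins but no alpha-defensins, and their heterophils, the counterpart of mammalian neutrophils, lack myeloperoxidase and store defensins and cathelicidins in their granules. In chickens AvBD1 and AvBD2 were first purified from heterophil granules, and the genes AvBD1 to AvBD7 are known for expression in bone marrow and leukocytes, whereas AvBD8 to AvBD13 are known mainly from liver, kidney and the reproductive tract.

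The values are on the log2 scale and carry no count or depth, and the number of arrays limits the precision. In the deposited table the wild type and deltaP value of a replicate number added up to the same sum for all 3 numbers, to within 0.00013 log2 units. A single array's value is therefore not its own measured level, and the data hold 3 independent differences, deltaP minus wild type, called pairs 1, 2 and 3 below. With such values the groups fail to overlap exactly when all 3 differences have the same sign. The poly-A control RNAs stood higher on the deltaP array of pair 3, with a median difference of 0.68 against -0.09 and -0.06 in pairs 1 and 2, and the hybridization controls by 0.5 against 0.04 and -0.18. The part of the poly-A control shift in the results was not tested. The members' values after centring on the hybridization controls are given beside some of the results that they alter, and results without them may change too. This centring lowered pairs 1 and 3 and raised pair 2, by amounts not exactly equal to these medians. The AvBD4 differences, for example, went from -2.87, -2.76 and -1.3 to -2.92, -2.5 and -1.9. The median difference over all 16199 tested probe sets was 0.01, 0.02 and -0.05 in pairs 1, 2 and 3. Of 14 monocyte and macrophage markers on the array, 12 were bright enough to test, among them CSF1R, the receptor for macrophage colony-stimulating factor, whose mean was 12.82 in wild type and 12.51 in deltaP. MARCO and MRC1, receptors of mature macrophages, were not. Other markers of the same list were above the filter, among them LGMN, C1QA, C1QB and C1QC. Their means over all arrays were 10.83, 6.48, 7.84 and 6.96.

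Of the 14 genes, 8 had a signal, defined as a log2 value over 4 on at least 3 of the 6 arrays. These were AvBD1, DEFB4A, AvBD3, AvBD4, AvBD5, AvBD6, AvBD7 and CATH1, with 10 probe sets in all. The other 6 genes, AvBD8, AvBD9, AvBD10, AvBD11, AvBD12 and AvBD13, lay near the background of the array. Their probe sets, together with a second AvBD1 probe set of the x_at kind, made up the 10 that were not tested, with values between 1.84 and 3.13 on all arrays. Mean differences of these 10 ran from -0.12 to 0.22. The AvBD8 probe set of the s_at kind had the highest single pair difference among them, 0.72 in pair 3, between values of 2.41 and 3.13 that both lie below the filter.

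The split between genes with and without signal followed the order of the genes on the chromosome. Background values need not mean a silent gene: the AvBD1 x_at probe set had a mean of 2.16, the other AvBD1 probe set 14.4. AvBD9, AvBD10, AvBD12 and AvBD13 rested on 1 probe set each. All defensin genes measured lie in 1 cluster on chromosome 3 in the RefSeq gene table. From the CTSB side the order is AvBD13, AvBD12, AvBD11, AvBD10, AvBD9 and AvBD8, the 6 genes near background, and then AvBD7, AvBD6, DEFB4A, AvBD1, AvBD3, AvBD5 and AvBD4, the 7 with signal. AvBD14, which follows AvBD4, had 0 probe sets annotated to it alone and was not measured. The genes on either side of the cluster were chosen for this comparison after the member values were seen. CTSB, a lysosomal protease gene, had a wild type mean of 10.73 and a deltaP mean of 10.82, and FDFT1, a squalene synthase gene beyond it, had 11.36 and 11.31. On the AvBD4 side XKR5 was near background (2.88 and 2.91) and TRAM2, a gene of protein translocation into the endoplasmic reticulum, had 10.23 and 10.34. The limma adjusted p of CTSB and TRAM2 was 0.851 and 0.837. Further out on that side PAQR8, a membrane receptor gene, was lower in all 3 pairs (-0.7, -0.42 and -0.46), with limma p of 0.0327 before and 0.487 after adjustment, and its groups did not overlap. The run of defensin genes with signal thus lay between AvBD8 and XKR5, both at background, in both groups alike. Whether the run takes in AvBD14, between AvBD4 and XKR5, was not measured.

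**Figure D1:**
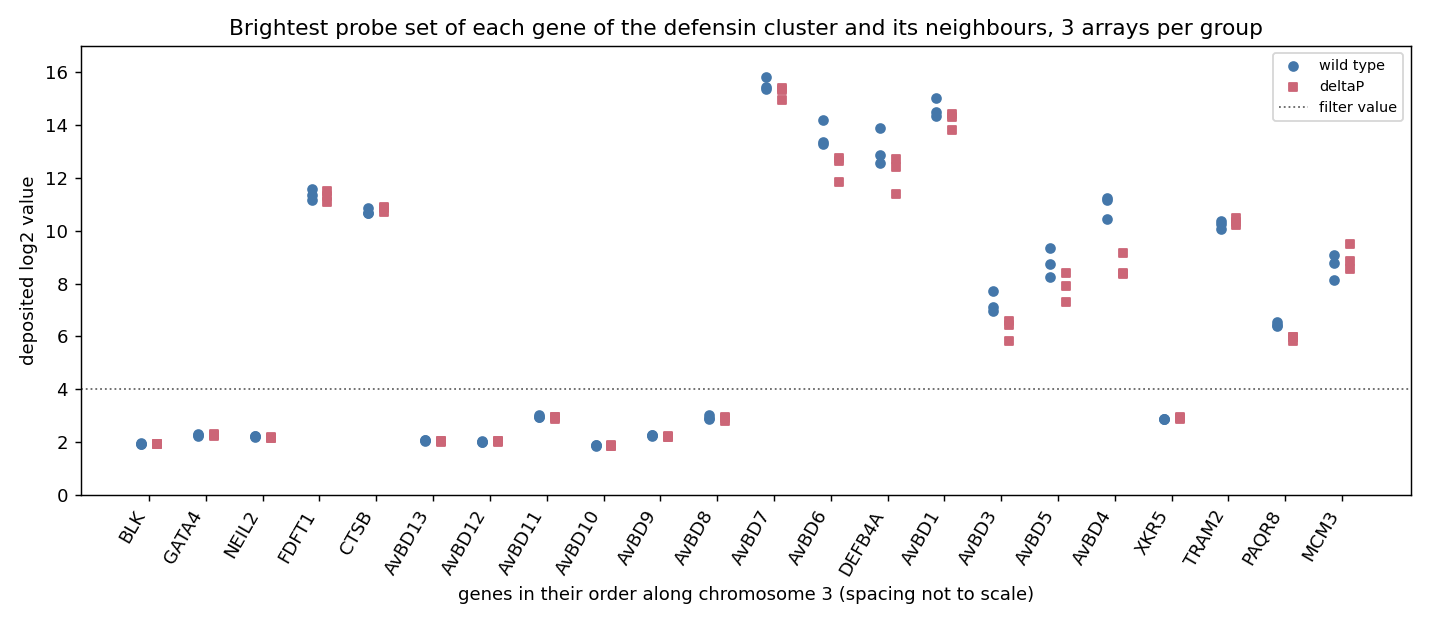
Deposited log2 values (vertical axis) of the brightest probe set of each gene, in the order of the genes along chromosome 3 (horizontal axis, not to scale), with 3 wild type arrays as circles, 3 deltaP arrays as squares and the filter value of 4 as a dotted line. The 7 genes from AvBD7 to AvBD4 lie above the filter and the 6 from AvBD13 to AvBD8 below it; heights of different probe sets are not comparable beyond that.

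All 10 tested probe sets had a lower mean in deltaP than in wild type cells, where 50.6% of all tested probe sets did. Their median log2 difference was -0.84, a 1.79-fold lower value, against 0 over all tested probe sets. By pair the median was -0.54, -1.63 and -0.34. The number lower in deltaP was 9 of 10 in pair 1, 10 of 10 in pair 2 and 6 of 10 in pair 3, where the shares over all tested probe sets were 48.2%, 46.8% and 55.1%. Centring on the hybridization controls lowers every probe set of pair 3 by the same amount and raises every probe set of pair 2. All members were then lower in pair 3, from -0.45 (DEFB4A) to -1.9 (AvBD4). DEFB4A ranked 11078 from the most negative of 16199 in that pair, so most tested probe sets were then lower too. In the deposited values no member passed the threshold of an adjusted p under 0.05. Limma, blocked on replicate number, called 0 of the 10 members and 0% of all 16199 probe sets. With the unadjusted p the threshold was met by 5 of the 10, against 9.26% of all tested probe sets. All 5 were lower in deltaP, as were 5.66% of all tested probe sets, and 0 were higher, against 3.6%. The groups did not overlap for 5 of the 10, against 32.5% of all tested probe sets in either direction. All 5 were lower in all 3 pairs, as were 16.4% of all tested probe sets. In bulk RNA, fewer cells that make a peptide and less RNA in each cell cannot be told apart. The labels name the arrays biological replicates but do not say what same-numbered cultures share.

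**Figure D2:**
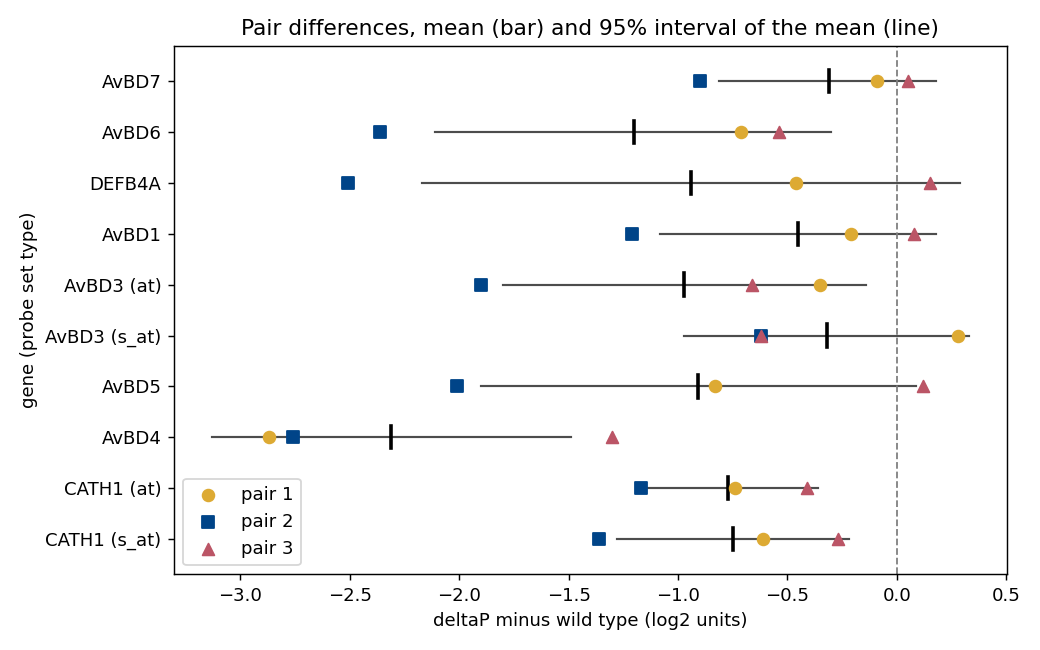
Differences deltaP minus wild type in log2 units (horizontal axis) for the 10 tested probe sets (vertical axis, defensins in chromosome order, then CATH1), with 1 marker per pair, the mean as a thick bar and the 95% interval of the mean from limma as a line. Pair 2 is the most negative for 9 of 10 probe sets, and AvBD4 has all 3 differences at or below -1.3.

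AvBD4 stood lowest. Its deposited values were 11.23, 11.17 and 10.44 on the wild type arrays and 8.35, 8.41 and 9.14 on the deltaP arrays. Every wild type array lay above every deltaP array. The differences were -2.87, -2.76 and -1.3, with a mean of -2.31 ± 0.88 (SD, n = 3 pairs), which is a 4.96-fold lower value in deltaP, and a 95% interval from -3.13 to -1.49. In limma the unadjusted p was 0.000582 and the adjusted p 0.228. By the size of its mean difference AvBD4 ranked 9 from the most negative of 16199 tested probe sets. It ranked 12 in pair 1, 9 in pair 2 and 488 in pair 3. Without pair 3 the difference was -2.82 and the limma adjusted p 0.0311, and without the replicate block, a fit that counts too many degrees of freedom for these values, the limma adjusted p was 0.0183. After centring on the hybridization controls the limma adjusted p was 3.41e-09. In that fit limma gave all probe sets of like intensity a common variance, so the small p does not rest on the spread of AvBD4 itself. Over all alternatives the limma adjusted p ran from there to 0.885. AvBD4 was also lower than each of the other 9 tested member probe sets in every pair, when differences were set against each other. The margin in pair 1 was between -2.05 (AvBD5) and -3.15 (the AvBD3 s_at probe set), whereas in pair 2 it was as small as -0.25 (DEFB4A). The single AvBD4 probe set is of the s_at kind, whose probes can match several related transcripts, so other transcripts may share its signal.

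CATH1, on chromosome 2, was read by a pair of probe sets that gave nearly the same result. This cathelicidin, also known as fowlicidin-1, is made mainly in bone marrow. The probe set of the plain kind had values of 13.04, 13.26 and 12.88 in wild type and 12.3, 12.09 and 12.47 in deltaP cells. The s_at probe set had 15.29, 15.66 and 15.12 in wild type and 14.68, 14.3 and 14.85 in deltaP cells. Groups did not overlap in either. The mean differences were -0.77 ± 0.38 and -0.75 ± 0.56 (SD, n = 3 pairs), with 95% intervals from -1.18 to -0.36 and from -1.28 to -0.22. The limma unadjusted p were 0.004 and 0.0142 and the adjusted p 0.327 and 0.421. Without pair 2 the differences were -0.57 and -0.44. The plain probe set is not of the shared kind, so the lower CATH1 value was also read without shared probes. Without the replicate block the plain probe set had a limma adjusted p of 0.032, and over all alternatives it ran from there to 1. CATHB1, the neighbouring cathelicidin gene known from the bursa of Fabricius, was outside the selection rule and near background (2.1 and 2.07). CATH2 and CATH3, in the same cluster, had 0 probe sets annotated to them alone and were not measured.

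AvBD6 was the third gene that was lower in all 3 pairs by every probe set, with a single probe set of the s_at kind whose signal related transcripts may share. Its values were 13.37, 14.2 and 13.29 in wild type and 12.66, 11.84 and 12.75 in deltaP cells, without overlap. The difference of -2.36 in pair 2 was much larger than those of -0.71 and -0.54 in pairs 1 and 3. The mean was -1.2 ± 1.01 (SD, n = 3 pairs), a 2.3-fold lower value, with a 95% interval from -2.11 to -0.3 and a limma adjusted p of 0.424. Without pair 2 the difference was -0.62. After centring on the hybridization controls the difference was -1.33 with a limma adjusted p of 0.0113, from the same fit with a common variance. That value was the lowest of a range up to 1 over the alternatives.

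AvBD3, which epithelia of the airway also make, lay nearest to the filter, and its probe sets did not match. The plain probe set had values of 6.95, 7.72 and 7.1 in wild type and 6.59, 5.82 and 6.44 in deltaP cells. Its groups did not overlap. The differences were -0.35, -1.9 and -0.66, with a mean of -0.97 ± 0.82 (SD, n = 3 pairs) and a limma adjusted p of 0.475. Without pair 2 the mean was -0.51. The s_at probe set had 4.95, 5.4 and 5.4 in wild type and 5.23, 4.78 and 4.78 in deltaP cells. There pair 1 went the other way, by 0.28, so the groups overlapped, and the mean was -0.32 ± 0.52 with a limma adjusted p of 0.746. It was -0.62 without pair 1 and -0.17 without pair 2 or pair 3. A call for AvBD3 would therefore depend on the probe set. One epithelial marker of 13 on the array, the cadherin gene CDH1, was bright enough to test (means of 4.88 and 4.67), and EPCAM was below the filter with means of 3.24 and 3.32.

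The remaining genes with signal were lower in pairs 1 and 2 and slightly higher in pair 3, a direction that turned after centring on the hybridization controls. Their pair 3 differences were then -0.45 for DEFB4A, -0.47 for AvBD5, -0.52 for AvBD1 and -0.54 for AvBD7. This centring moves all probe sets of a pair by the same amount, so ranks within pair 3 stayed as they were. From the most negative of 16199 they were 11078 for DEFB4A, 10742 for AvBD5, 10200 for AvBD1 and 9846 for AvBD7. All 4 thus stayed on the less negative side of the median probe set, which was at -0.05 before centring. DEFB4A, the heterophil granule peptide AvBD2, had values of 12.87, 13.89 and 12.56 in wild type cells and 12.41, 11.38 and 12.71 in deltaP cells. Its differences were -0.46, -2.51 and 0.15, so that the groups overlapped and nearly all of the mean of -0.94 ± 1.39 (SD, n = 3 pairs) came from pair 2. Without pair 2 it was -0.16.

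AvBD5 had 8.74, 9.33 and 8.26 in wild type and 7.91, 7.32 and 8.39 in deltaP cells. Its mean difference was -0.91 ± 1.07 (SD, n = 3 pairs), with -0.83 in pair 1, -2.01 in pair 2 and 0.12 in pair 3. The wild type array of replicate 3 lay below the deltaP array of the same number, and the groups overlapped. Without pair 2 the mean was -0.35.

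AvBD1, the other peptide first found in heterophil granules, had 14.51, 15.01 and 14.36 in wild type and 14.3, 13.8 and 14.44 in deltaP cells. AvBD7 had 15.44, 15.84 and 15.36 in wild type and 15.34, 14.94 and 15.42 in deltaP cells. Both groups of values overlapped, and the mean differences were -0.45 ± 0.68 and -0.31 ± 0.51 (SD, n = 3 pairs). Their 95% intervals, from -1.08 to 0.18 and from -0.81 to 0.18, include 0. The limma adjusted p of these 4 genes ran from 0.578 for AvBD5 to 0.682 for AvBD7. Without pair 2 the differences of AvBD1 and AvBD7 were -0.07 and -0.02. Without pair 3 they were -0.71 and -0.5, and those of DEFB4A and AvBD5 were -1.48 and -1.42. The AvBD5 and AvBD7 probe sets are of the s_at kind.

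**Figure D3:**
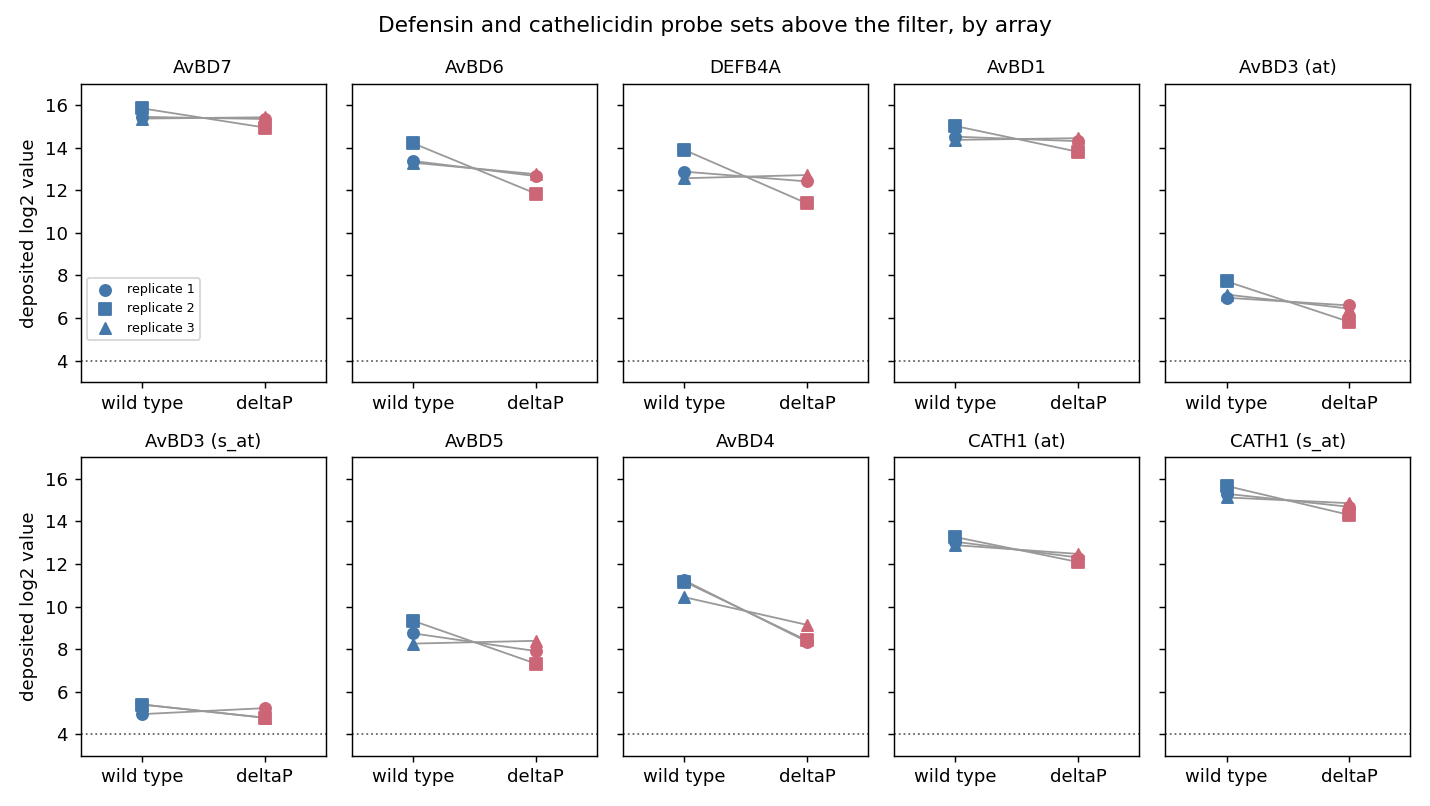
Deposited log2 values (vertical axis) of the 10 tested probe sets on the wild type and deltaP arrays, with same-numbered arrays joined by a line and the filter value of 4 as a dotted line. The groups are separate for AvBD4, AvBD6, both CATH1 probe sets and the plain AvBD3 probe set, and overlap for the others; heights of different probe sets are not comparable.

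The probe sets of AvBD7, AvBD1 and CATH1 (s_at) were among the 191 of 16199 tested probe sets with a mean over 14. Over these 191 the median absolute difference was 0.1, against 0.17 over all tested probe sets. Only 1 of them, the CATH1 probe set itself, had a mean difference as low as that of CATH1, and 5, AvBD7 included, had one as low as that of AvBD7. The limit of 14 was not among the planned results and the cutoffs are the members' own values, so these counts are a description only. Whether such bright probe sets read differences in full was not tested.

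The family's differences were largest in pair 2. In the deposited values that pair held the most negative difference for 9 of the 10 tested probe sets, AvBD4 being the exception. It did so for 28.8% of all tested probe sets. For the AvBD3 s_at probe set pairs 2 and 3 were nearly equal (both -0.62). After centring on the hybridization controls pair 3 was the most negative for that probe set (0.23, -0.35 and -1.21). The same held for the plain CATH1 probe set (-0.78, -0.9 and -1). All 10 were lower by over 0.5 in pair 2, as were 6.64% of all tested probe sets. That limit was not among the planned results and lies just under the smallest of the 10 differences (-0.62), so the count is a description only. The AvBD3 s_at probe set no longer met it after centring. The SD of the differences over all tested probe sets was 0.53, 0.43 and 0.62 in pairs 1, 2 and 3, so pair 2 was the pair with the smallest spread overall. In ranks from the most negative in pair 2, DEFB4A stood at 16, AvBD6 at 21, AvBD5 at 34 and the plain AvBD3 probe set at 41 of 16199. In pair 3 the differences of DEFB4A and AvBD5 ranked 11078 and 10742. Without pair 2 the median difference of the members was -0.4.

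Genes with the most similar pattern were sought by the distance between their 3 pair differences and those of each member, over 7768 genes represented by their brightest probe set. The nearest genes named are those outside the family, and the closest member is given apart. The distance is a description that rests on 3 numbers. For AvBD4 the nearest genes were SYNE2, which encodes a protein of the nuclear envelope (-2.1, -2.02 and -1.5), C8orf88 (-2.98, -1.64 and -2.04) and TLX1, a homeobox transcription factor gene (-2.06, -1.9 and -0.6), at distances of 1.09, 1.35 and 1.37. No member was as near to AvBD4 as these, the closest being AvBD6 at 2.33. For AvBD6 the nearest were ANXA13, an annexin gene (distance 0.23), IL16, which encodes a chemoattractant cytokine (0.4), and FAM107A (0.71), while AvBD3, nearer than FAM107A, lay at 0.6. DEFB4A had LOC101749175 (0.58), FAM107A (0.72) and ANXA13 (0.74) nearest outside the family, and AvBD5, at 0.62, was nearer than FAM107A and ANXA13. AvBD5 had MCTP1, PHYHIPL and C17orf58 nearest, at 0.42 to 0.52, and DEFB4A as its closest member, at 0.62. AvBD3 had LIMA1, MTHFD1 and UPP1 nearest, at 0.42 to 0.5, and AvBD6 as its closest member, at 0.6. CATH1 had PDE6G, LOC424014 and UPP1 nearest, at 0.3 to 0.34, and AvBD1 as its closest member, at 0.55. AvBD1 was closest to SNX16, CDC42EP3 and TMEM68 (0.04 to 0.22) and AvBD7 to B4GALT4, PDE4B and SPAG5 (0.04 to 0.17). AvBD1 and AvBD7 were 0.34 apart. Some of the genes named lay close to the filter value of 4 even in wild type cells. Their wild type means were 4.54 for TLX1, 4.47 for LOC101749175, 4.59 for PHYHIPL and 4.43 for C17orf58. Such genes could pass the filter through the wild type arrays alone, and their differences may be cut off at the background.

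Genes of other antimicrobial proteins lay on both sides of 0. In deltaP 6 of the 11 tested genes were higher and 5 lower. For this list and those below, 50.6% of all tested probe sets were lower on average. By limma 9.26% of them had an unadjusted p under 0.05. The median difference was 0.02, and 0 passed the adjusted threshold (2 had an unadjusted p under 0.05, both higher). S100A12, a calcium-binding protein of myeloid cells, had differences of 1.93, 2.77 and 1.82 (limma adjusted p = 0.191). EXFABP, a lipocalin that binds bacterial siderophores, had 1.02, 1.72 and 0.51 (limma adjusted p = 0.338). RNASE6, a secreted ribonuclease gene, had -0.99, -0.53 and 0.09, and LYZ, the lysozyme gene, had 0.71, 0.39 and 0.02, with limma adjusted p of 0.578 and 0.595. In pair 2, where most of the peptide genes were lowest, S100A12 and EXFABP had their highest differences. LYG2, of the same list, had its lowest there (0.38, -1.4 and -0.13), so the list had no common direction in that pair.

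Granulocyte genes also lay on both sides, with 5 of 11 tested genes higher and 6 lower, a median of -0.21, 0 past the adjusted threshold and 5 with an unadjusted p under 0.05. SERPINB10B, a chromatin-associated serpin of avian granulocytes, had 1.94, 2.41 and 2.5 (limma adjusted p = 0.13). After it and the pair S100A12 and EXFABP came NCF1C, whose product is part of the oxidase behind the oxidative burst, with -1, -0.41 and -0.47 (limma adjusted p = 0.407). Of 8 granulocyte markers on the array 6 were tested and 5 of them were higher in deltaP on average, where 50.6% of all tested probe sets were lower. Among the 5 were S100A12 and EXFABP, already counted with the antimicrobial proteins. LECT2, also among them, had differences of 2.28, -1.39 and 0.27. The summed level of the 8 markers lay between log2 values of 12.29 and 12.99 on the wild type arrays and between 12.76 and 13.22 on the deltaP arrays. This sum adds probe sets whose heights are not comparable and ignores the pairs, so it does not measure granulocyte content. EPX and MMP9 were below the filter. CSF3R, the receptor for granulocyte colony-stimulating factor, had means of 9.56 and 9.58. LYG2, a goose-type lysozyme gene, had 11.61 and 11.22. The part of any granulocyte-like cells in the peptide values was not tested.

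Transcription factors of the myeloid lineage were 4 higher and 7 lower of 11 tested (median -0.16, 0 past the adjusted threshold, 2 with an unadjusted p under 0.05). KLF6 had a mean difference of 0.5, IRF8, a monocyte lineage factor, -0.52, CEBPB, a factor of myeloid gene expression, -0.24 and RUNX1 -0.39. Their limma adjusted p ran from 0.421 to 0.578.

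Microbial sensing and NF-kB genes, a pathway that induces defensins in many cells, included 28 tested genes, 16 higher and 12 lower, the median being 0.03, with 0 past the adjusted threshold and 6 with an unadjusted p under 0.05. TLR7, a receptor for single-stranded RNA, had a mean difference of 0.53, the chemokine gene IL8L2 1.08, the adaptor gene MYD88 0.49 and the interleukin-1 receptor gene IL1R1 -0.49. Their limma adjusted p ran from 0.322 to 0.432.

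Genes of secretory granules and peptide processing included 31 tested genes, 25 higher and 6 lower, where 50.6% of all tested probe sets were lower. The median was 0.09, with 0 past the adjusted threshold. By limma 3 had an unadjusted p under 0.05, all higher, against 3.6% of all tested probe sets. CTSC, a protease that activates granule serine proteases, had 0.36, CTSD, a lysosomal protease, 0.55, PDIA3, a disulfide isomerase of the endoplasmic reticulum, 0.75 and SEC11A, a subunit of the signal peptidase, 0.26. Their limma adjusted p ran from 0.386 to 0.541.

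The genes listed around both clusters had a median of 0, with 6 higher and 8 lower of 14 tested, 0 past the adjusted threshold and 1 with an unadjusted p under 0.05. That gene was KIF9, a kinesin gene on the cathelicidin side, with -0.95, -0.21 and -0.95 (limma adjusted p = 0.471). The list is not the full set of neighbours, and some of its genes, such as MTMR9 and TRAM1L1, are not among those nearest to a cluster. PAQR8, described above beside the defensin cluster, was not on it. Neither were the tested neighbours MCM3, CCM2, MYO1G and GIMAP6, with mean differences of 0.3, -0.03, 0.02 and -0.02. MTMR9, TRAM1L1 and KLHL18 had mean differences of 0.16, -0.1 and -0.15 (limma adjusted p from 0.719 to 0.809).

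**Figure D4:**
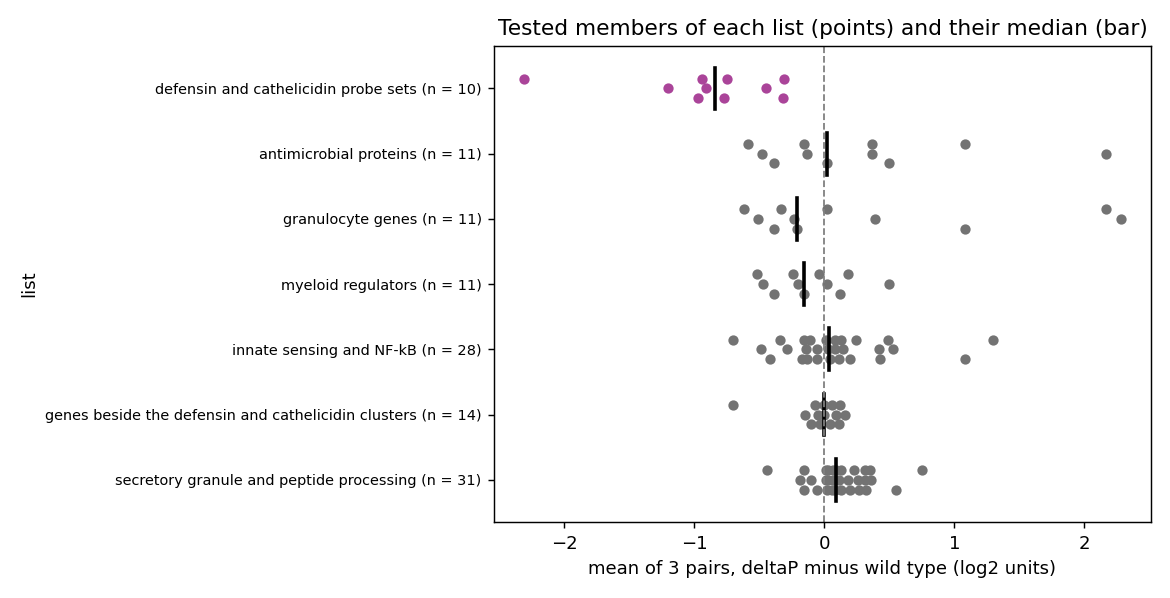
Mean differences deltaP minus wild type in log2 units (horizontal axis) of the 10 tested defensin and cathelicidin probe sets and of the tested genes of 6 other lists (vertical axis), with 1 point per probe set or gene and the median as a bar. The members' median is -0.84 and those of the other lists lie between -0.21 and 0.09.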

How the data were processed

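Total RNA of the 6 cultures (5 ug each) was extracted with Trizol and, as biotinylated cRNA, put on chicken arrays of Affymetrix, per the labels' protocols. The authors deposited a table of log2 values with 38535 probe sets, 96 of them array controls. The submitters' processing notes name Partek 6.4 and GCRMA. GCRMA subtracts a sequence-based background and pulls dim probe sets to a floor. Same-numbered sums agreed within 0.00013 (tolerance 0.001), and arrays with the same number deviated from their group means with a correlation of -1 in all 3 pairs: the replicate number had been removed from the values, a step not given in the sources used here.

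Probe sets with a log2 value over 4 on at least 3 of 6 arrays (16199) were tested two-sided in limma 3.58.1 (R 4.3.3), using lmFit with the replicate number as a block and eBayes with an intensity trend, with Benjamini-Hochberg adjustment over all of them and a threshold of 0.05. The fit was tested on simulated data. Symbols came from the 2016 platform annotation and gene order from RefSeq (GRCg7b), which is used for order only, since the array annotation names no build. A gene in a list is represented by its brightest probe set. In probe set names, s_at marks probes shared by several transcripts, x_at probes that can cross-hybridize and a_at transcripts of 1 gene. The members, the lists and the tests were chosen with earlier results of these data known. Named are all members, up to 4 genes per list with the smallest p and the 3 nearest genes to each member, plus neighbours of the clusters and markers chosen after their values were seen.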

Additional observations from a re-analysis of the deposited data

How the results depend on the processing

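Of 121 recomputed member values 5 came to pass the adjusted threshold. Only leaving out a pair or centring can move a difference (50 values), and 0 of these changed sign. Without the replicate block, which takes 4 residual degrees of freedom from values that have 2, limma gave 2 members an adjusted p under 0.05: AvBD4 (-2.31, adjusted p = 0.0183) and the plain CATH1 probe set (-0.77, adjusted p = 0.032). It then called 1120 of 16199 probe sets (6.91%), against 0 with the block. Centring on the hybridization controls gave 2 (AvBD4 at -2.44 and AvBD6 at -1.33) past that threshold and 9 lower in all 3 pairs; limma then estimated an unlimited prior number of degrees of freedom, so that all probe sets of like intensity shared 1 variance, and called 105 (0.648%), with 10.3% of all tested probe sets lower in all 3 pairs.

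Leaving out 1 pair at a time gave between 0 and 1 member past the adjusted threshold, between 4 and 8 at an unadjusted p under 0.05, and between 5 and 9 lower in both remaining pairs. The highest of each came without pair 3. Over all tested probe sets the share at an unadjusted p under 0.05 was 4.14%, 9.03% and 12.1% without pairs 1, 2 and 3, the share lower in both remaining pairs was 25.6%, 30.2% and 26.9%, and without pair 3 limma called 12 probe sets (0.0741%). The AvBD4 difference lay between -2.82 (without pair 3) and -2.03 (without pair 1). The members' median lay between -1.06 (without pair 3) and -0.4 (without pair 2). Only the 4 tested probe sets ending in neither s_at nor x_at, fewer by construction, gave 2 at an unadjusted p under 0.05 and 2 lower in all 3 pairs. The exact sign-flip permutation test gave 0 at an unadjusted p under 0.05, since its smallest p with 3 pairs is 0.25. With no filter on dim probe sets all 20 members were tested and the median was -0.21, since the 10 near background entered it. Fits with no intensity trend, robust estimation, a filter at 6, 1 probe set per gene or centring on the median left 0 members past the adjusted threshold and 4 or 5 at an unadjusted p under 0.05, where the share over all tested probe sets ran from 8.77% (no trend) to 10.2% (filter at 6).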

Other observations

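Of 5 tested lymphocyte markers, 2 were higher and 3 lower in deltaP. TARP, from the T cell receptor gamma locus, had a wild type mean of 10.75 and a deltaP mean of 7.69. Its differences were -3.91, -2.8 and -2.47 (limma adjusted p = 0.191). CD3D, a subunit gene of the T cell receptor complex, had means of 10.59 and 10.02 with differences of -1.17, 1.07 and -1.63, so that it was higher in deltaP in pair 2, the pair in which most defensin genes were lowest. LCK, ZAP70, CD4 and CD8A were below the filter. Among erythroid markers the globin genes HBAD and HBA1 had opposite differences in pairs 1 and 3, 2.91 and -2.65 for HBAD and 1.76 and -2.94 for HBA1. Among thrombocyte markers F13A1, a coagulation factor gene also active in macrophages, had -0.29, -1 and -2, and of the fibroblast and stromal markers 1 of 14, COL3A1, was bright enough to test (4.18 and 4.23).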
